A study of Homo sapiens with 12 samples.

Results

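TXNIP, ARRDC1, ARRDC2, ARRDC3 and ARRDC4, the human alpha-arrestin genes that were expressed in RCC4 cells, and TXN, which encodes the thioredoxin that TXNIP binds, were followed across knockdown of HIF-1α and HIF-2α. These 6 genes were taken by symbol from the 23106 gene symbols of each count table. They were selected on their symbols as a family, with earlier results of these data known, in which TXNIP and ARRDC4 stood among the genes lower with HIF1A siRNA and ARRDC3 among those lower with HIF2A siRNA. In the comparisons between single siRNAs and control siRNA the values of the members are therefore a description, without a test. The double knockdown had no part in those gene lists and was tested, although it shares its comparison groups with them.

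RCC4 is an established cell line of human clear cell renal carcinoma that lacks functional VHL, so that both HIF-α proteins are present at ambient oxygen. All libraries came from this line, grown in high glucose medium and harvested 48 h after transfection with siPOOLs, which are pools of siRNAs against 1 transcript, at 2 nM in total. The control siRNA group received 2 nM control siRNA, the HIF1A siRNA group 1 nM HIF1A siRNA with 1 nM control siRNA, and the HIF2A siRNA group 1 nM siRNA against EPAS1, the gene of HIF-2α, with 1 nM control siRNA. The double knockdown received 1 nM of each HIF siRNA and no control siRNA. Each comparison of groups other than HIF1A siRNA against HIF2A siRNA therefore also differs in the dose of control siRNA. Each group held 3 libraries, and libraries with the same replicate number were treated as 1 biological replicate, as in the methods of the study.

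Alpha-arrestins are adaptors. Their arrestin fold holds a membrane protein, and PPxY motifs in their tails recruit ubiquitin ligases of the NEDD4 family, so that the cargo is ubiquitinated and taken into the cell. TXNIP is the member best known in metabolism. It lowers glucose uptake by driving endocytosis of the glucose transporter GLUT1, and it also binds reduced thioredoxin and blocks its active site. Its transcription is raised by glucose through MondoA (MLXIP) and its partner MLX, which bind carbohydrate response elements in the promoter, and the paralog ARRDC4 is controlled in the same way. Hypoxia-inducible factors bind a shorter core, ACGTG or GCGTG, and in clear cell renal carcinoma the loss of VHL keeps them active.

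The promoters of TXNIP, ARRDC4 and ARRDC3 are shown because TXNIP and ARRDC4 had similar profiles over the siRNAs and ARRDC3 had another. Each sequence holds the 250 bases before the first start site in RefSeq (GRCh38.p14), on the strand of the gene, and capitals mark the hexamer CACGAG, the hexamer CACGTG and the HIF cores ACGTG or GCGTG, on either strand (on the other strand GCGTG reads CACGC).
TXNIP, chr1:145996580-145996829, minus strand: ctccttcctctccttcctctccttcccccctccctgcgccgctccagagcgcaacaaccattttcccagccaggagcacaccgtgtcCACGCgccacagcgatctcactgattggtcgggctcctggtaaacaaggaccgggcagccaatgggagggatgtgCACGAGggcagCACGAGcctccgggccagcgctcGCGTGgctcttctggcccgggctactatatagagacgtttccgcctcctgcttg
ARRDC4, chr15:97960453-97960702, plus strand: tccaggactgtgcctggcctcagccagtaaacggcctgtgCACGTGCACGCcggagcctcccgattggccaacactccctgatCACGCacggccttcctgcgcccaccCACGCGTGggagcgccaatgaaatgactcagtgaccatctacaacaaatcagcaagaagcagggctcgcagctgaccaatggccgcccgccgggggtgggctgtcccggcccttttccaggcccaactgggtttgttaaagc
ARRDC3, chr5:91383318-91383567, minus strand: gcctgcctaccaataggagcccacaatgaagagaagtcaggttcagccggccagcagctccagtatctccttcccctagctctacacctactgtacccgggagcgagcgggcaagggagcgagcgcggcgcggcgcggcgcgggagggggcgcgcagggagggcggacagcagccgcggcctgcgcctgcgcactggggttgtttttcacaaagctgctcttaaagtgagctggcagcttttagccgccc

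In the TXNIP window 2 copies of CACGAG, the letters of its known carbohydrate response element, began 88 and 77 bases before the start site, with 5 bases between them. Of 35116 RefSeq promoter windows of the same kind, each with 50 further bases after the start site, 6.78% held CACGAG and 0.316% held it at least 2 times. The TXNIP window also held 2 copies of GCGTG, a core that 36.5% of all windows held and 12.7% held at least 2 times. The window at its other start site held 1 ACGTG and neither CACGAG nor GCGTG. The ARRDC4 window held CACGTG, found in 7.26% of windows, at 210 bases before the start site, and ACGTG was counted on both strands within it. It also held 4 copies of GCGTG, of which a pair overlapped. Neither ARRDC3 window, at its first or its other start site, held any of these letters, whereas 48.4% of all windows held ACGTG or GCGTG. In the other promoters, ARRDC1 held none of them, each ARRDC2 window held 2 copies of GCGTG and the TXN window held 6. These matches describe the letters in the windows and were not tested for binding.

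The tables held between 13263168 and 20451433 counts per library. Levels are given in CPM, the share of a count in the total of its library after scaling by trimmed mean of M values (TMM) factors, and errors of levels are SDs over 3 libraries. All 6 members passed the filter on low counts, and fold changes come from the quasi-likelihood test of edgeR with the replicate number as a block. HIF1A mRNA was at 120, 58.2 and 112 CPM with control siRNA in replicates 1 to 3, and at 14.99, 17.8 and 22.2 CPM with HIF1A siRNA. EPAS1 was at 138 to 171 CPM with control siRNA and at 9.16 to 11.9 CPM with HIF2A siRNA. In the double knockdown HIF1A was at 24.2 to 32.2 CPM and EPAS1 at 7.01 to 11.3 CPM. Within pairs EPAS1 was at 62.3 to 78.6% of control with HIF1A siRNA, and HIF1A at 92.2 to 199% of control with HIF2A siRNA, neither of which passed (adjusted p = 0.28 and 0.93, edgeR). The renal markers PAX8, PAX2, CA9, VIM, KRT8, KRT18 and CDH16 were detected in all libraries, but not all at a steady level. CA9 was at 144 to 283 CPM with control siRNA, 9.15 to 26.2 with HIF1A siRNA, 197 to 405 with HIF2A siRNA and 6.77 to 16.3 in the double knockdown. CDH16 was at 15.7 to 31.8 CPM with control siRNA and 29.2 to 65.8 CPM with HIF2A siRNA. Of 6 markers of other cell types, PTPRC, CD3E and PECAM1 had 0 counts throughout, VWF had 0 to 8, PDGFRB 9 to 162 and CD68 512 to 1337, and their summed level was 46.1 to 62.4 CPM with control siRNA, 44.7 to 68.6 with HIF1A siRNA, 35.0 to 68.3 with HIF2A siRNA and 52.0 to 70.7 in the double knockdown.

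TXNIP (chr1:145992435-145996579, minus strand) was lower in every library that received HIF1A siRNA. Its level was 119, 87.5 and 97.7 CPM with control siRNA in replicates 1 to 3, and 69.7, 62.3 and 72.2 CPM with HIF1A siRNA. With HIF2A siRNA it was 104, 117 and 131 CPM, and in the double knockdown 74.6, 60.2 and 66.3 CPM. The 6 libraries with HIF1A siRNA thus lay at 60.2 to 74.6 CPM, below all 6 libraries without it, which lay at 87.5 to 131 CPM.

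By group, TXNIP was highest with HIF2A siRNA (117 ± 13.3 CPM), then with control siRNA (101 ± 16.0 CPM), and these neighbours overlapped. HIF1A siRNA (68.1 ± 5.18 CPM) and the double knockdown (67.0 ± 7.20 CPM) followed and also overlapped. The log2 fold change of HIF1A siRNA against control siRNA was -0.57 (SE 0.14), which is a 1.49-fold lower level, and it was 606th from the lowest among 12830 genes. HIF2A siRNA against control siRNA gave 0.22 (SE 0.14), with a lower level in 1 of 3 pairs.

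ARRDC4 (chr15:97960703-97973833, plus strand), the paralog that shares glucose control with TXNIP, was also low in the groups with HIF1A siRNA. Unlike that of TXNIP, its mean was lower with HIF1A siRNA (11.9 CPM) than in the double knockdown (12.8 CPM), but these groups overlapped. Its level was 27.5, 18.6 and 17.2 CPM with control siRNA and 12.5, 13.02 and 10.1 CPM with HIF1A siRNA. With HIF2A siRNA it was 22.3, 26.5 and 19.2 CPM, and in the double knockdown 13.2, 12.5 and 12.8 CPM. No library with HIF1A siRNA reached the level of a library without it, and control replicate 1 was the highest of all. The log2 fold change was -0.82 (SE 0.18) with HIF1A siRNA against control siRNA, 326th from the lowest of 12830 genes, and 0.13 (SE 0.18) with HIF2A siRNA.

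ARRDC2 (chr19:18001124-18014102, plus strand), an adaptor whose cargo is less well known, was also lower with HIF1A siRNA. It was at 16.3, 21.8 and 15.6 CPM with control siRNA and at 12.4, 12.01 and 12.4 CPM with HIF1A siRNA, a log2 fold change of -0.53 (SE 0.19). With HIF2A siRNA it was at 25.9, 18.8 and 17.0 CPM, which overlapped control siRNA. In the double knockdown it was at 10.7, 14.6 and 12.5 CPM, so that ARRDC2 too was lower in each of the 6 libraries with HIF1A siRNA than in any other. Against control siRNA, HIF2A siRNA gave a log2 fold change of 0.20 (SE 0.18).

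ARRDC3 (chr5:91368631-91383317, minus strand) has been linked to traffic of integrin β4, and its profile was a different one. It was at 58.5, 48.9 and 38.6 CPM with control siRNA and at 32.6, 27.4 and 27.9 CPM with HIF2A siRNA. With HIF1A siRNA it was at 64.0, 60.6 and 44.7 CPM, and in the double knockdown at 31.0, 22.0 and 20.4 CPM. All 6 libraries with HIF2A siRNA lay below all 6 without it. Against control siRNA the log2 fold change was -0.71 (SE 0.13) with HIF2A siRNA, 288th from the lowest of 12830 genes, and 0.22 (SE 0.13) with HIF1A siRNA, for which every pair was higher, as for 14.8% of genes. Replicate 3 was the lowest library of its group in all groups except HIF2A siRNA.

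ARRDC1 (chr9:137605686-137615360, plus strand), which drives budding of microvesicles at the plasma membrane by recruiting the ESCRT protein TSG101, varied more between replicates than between groups. It was at 12.4, 22.1 and 10.4 CPM with control siRNA, at 16.0, 13.7 and 13.3 CPM with HIF1A siRNA, at 14.5, 7.44 and 9.43 CPM with HIF2A siRNA and at 14.3, 15.7 and 9.59 CPM in the double knockdown. Control replicate 2 was the highest library, and all groups overlapped with control siRNA. The log2 fold changes against control siRNA were -0.04 (SE 0.27) for HIF1A siRNA and -0.50 (SE 0.28) for HIF2A siRNA. C9orf37, an antisense transcript that overlaps the end of ARRDC1, was at 4.84 to 13.3 CPM over all libraries. Whether the counting used strand is not given in the sources used here, so how reads in the overlap of the pair were counted is not known.

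TXN (chr9:110243810-110256507, minus strand), the cytosolic disulfide reductase, was at 176, 236 and 180 CPM with control siRNA and at 217, 220 and 157 CPM with HIF1A siRNA. It was at 213, 193 and 180 CPM with HIF2A siRNA and at 199, 269 and 164 CPM in the double knockdown, so that the 4 groups overlapped. Its log2 fold changes with the single siRNAs were -0.00080 (HIF1A siRNA) and -0.00022 (HIF2A siRNA), each with an SE of 0.13. Counts of TXNIP per 100 counts of TXN were 67.4, 37.1 and 54.2 with control siRNA and 32.1, 28.3 and 46.0 with HIF1A siRNA. They were 48.9, 60.5 and 72.7 with HIF2A siRNA and 37.6, 22.4 and 40.4 in the double knockdown. The ratio was lower with HIF1A siRNA than with control siRNA in every pair, but the groups overlapped, and control replicate 2, which had the highest TXN of its group, was the lowest control library. ARRDC5, the remaining ARRDC gene of the tables, had 0 counts in all libraries except 1 count in replicate 3 of the double knockdown.

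**Figure D1:**
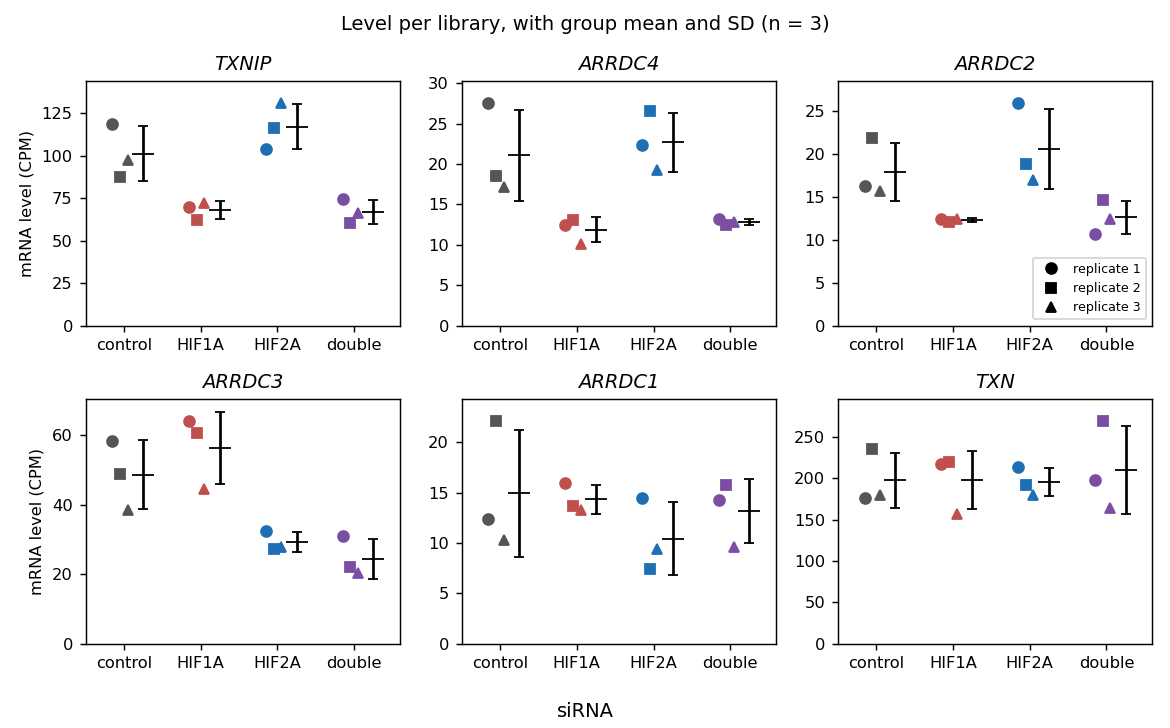
mRNA level in CPM (vertical axis, from 0) of the 6 genes in each library, by siRNA group (horizontal axis), with symbols for the replicate number and bars for the group mean and SD (n = 3). TXNIP, ARRDC4 and ARRDC2 are low in both groups with HIF1A siRNA, ARRDC3 is low in both groups with HIF2A siRNA, and ARRDC1 and TXN overlap between groups.

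Per kb of the MANE transcript in GENCODE, TXN was the most abundant of the 6 in control cells at 268 ± 45.3 CPM per kb, and TXNIP followed at 34.9 ± 5.501 CPM per kb. ARRDC3 (11.5 ± 2.35), ARRDC1 (9.60 ± 4.03), ARRDC2 (7.16 ± 1.35) and ARRDC4 (5.19 ± 1.38 CPM per kb) came next, each differing from its neighbour by less than the sum of their SDs. With HIF2A siRNA ARRDC3 was at 6.91 ± 0.672 CPM per kb, close to ARRDC1 (6.71 ± 2.32). TXNIP remained above each ARRDC gene in every group, with its lowest mean at 23.1 ± 2.48 CPM per kb in the double knockdown.

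In the comparison of HIF1A siRNA with control siRNA 3 members, TXNIP, ARRDC4 and ARRDC2, were lower without overlap between the groups, as were 4.24% of 13000 genes. In the comparison of HIF2A siRNA with control siRNA 1 member, ARRDC3, was lower without overlap, as were 2.86% of genes. At an adjusted p under 0.05, 0 of the 6 members were called in either comparison, in which edgeR called 1.17% and 0.0857% of 12830 genes, while 940 and 690 genes had an unadjusted p under 0.05. Between the single siRNAs, TXNIP (log2 fold change of HIF1A siRNA against HIF2A siRNA of -0.80, SE 0.14), ARRDC4 (-0.94, SE 0.18) and ARRDC2 (-0.73, SE 0.19) were lower with HIF1A siRNA, and ARRDC3 was higher (0.92, SE 0.13), each in 3 of 3 pairs and without overlap. Among all genes 19.2% were lower and 17.9% higher in all pairs there, 4.38% were lower and 3.52% higher without overlap, and edgeR called 3 of the 6 members (TXNIP, ARRDC4 and ARRDC3) and 1.5% of genes. Since the members were grouped with these contrasts known, nothing is read from these counts. A change in mRNA per cell and a change in the number of cells that make it cannot be told apart in bulk RNA.

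The double knockdown asked whether each member was lower when both HIF siRNAs were given. HIF1A mRNA was then at 20.5, 55.7 and 27.0% of control siRNA in replicates 1 to 3, so that its loss was incomplete. The value of replicate 2 had a low control library (58.2 CPM, beside 120 and 112 CPM). In the double knockdown itself HIF1A was at 24.2, 32.2 and 29.7 CPM, which was 22.2, 27.9 and 22.1% of the level with HIF2A siRNA. Against control siRNA 3 of 6 members fell, ARRDC3, ARRDC4 and TXNIP, and none rose, where edgeR called 6.42% of 13000 genes lower and 10.3% in all. These 3 were the members on the earlier lists, which used the same control libraries. The test is therefore not independent of their selection, and nothing is read from the count. ARRDC3 fell by 0.99 on the log2 scale (SE 0.13, adjusted p = 0.00014, edgeR), to 45.6 to 53.6% of control within pairs. TXNIP fell by 0.59 (SE 0.12, adjusted p = 0.0064), to 62.9 to 69.0% of control. ARRDC4 fell by 0.69 (SE 0.17, adjusted p = 0.018), to 49.0 to 75.3% of control. ARRDC2 was at 66.7 to 80.4% of control, lower in 3 of 3 pairs as were 25.4% of genes, but its log2 fold change of -0.51 (SE 0.19) did not pass (adjusted p = 0.10).

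Neither ARRDC1 (-0.18, SE 0.26, adjusted p = 0.70) nor TXN (0.08, SE 0.13, adjusted p = 0.76) passed the test in the double knockdown, and the 95% confidence intervals were -0.73 to 0.37 and -0.20 to 0.35. TXNIP, ARRDC2, ARRDC3 and ARRDC4 were lower without overlap between the groups, as were 8.55% of all genes. The ARRDC3 call held in 21 of 21 alternative analyses. The TXNIP call was lost without replicate 3 (-0.61, adjusted p = 0.13) and without the replicate block (-0.60, adjusted p = 0.11). The ARRDC4 call was lost without replicate 1 (-0.50), replicate 3 (-0.83), control replicate 1 (-0.49), double knockdown replicate 1 (-0.63) or double knockdown replicate 2 (-0.63), and without the block (-0.71).

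When HIF2A siRNA was added to HIF1A siRNA, ARRDC3 fell by 1.21 on the log2 scale in the double knockdown against HIF1A siRNA (SE 0.13, adjusted p = 0.00011, edgeR), which is 2.31-fold, in 3 of 3 pairs, as 18.8% of genes were lower in all pairs. It was the only 1 of the 6 members called in this comparison, in which edgeR called 0.969% of genes lower and 1.4% in all, and the only member lower without overlap, as were 4.46% of genes. Since the HIF1A siRNA libraries had a part in the earlier lists, the test is not independent of the selection, and nothing is read from this count. The ARRDC3 call held in 20 of 21 alternatives and was lost without the replicate block (-1.20, adjusted p = 0.099). TXNIP differed by -0.02 (95% confidence interval -0.29 to 0.24, adjusted p = 0.96), ARRDC4 by 0.13 (-0.24 to 0.50, adjusted p = 0.84) and ARRDC2 by 0.03 (-0.38 to 0.43, adjusted p = 0.97). These intervals still hold differences of 0.24 or more on the log2 scale, so that likeness of the groups is not shown. ARRDC1 (-0.15, adjusted p = 0.88) and TXN (0.08, adjusted p = 0.87) were not called either. HIF1A itself was at 133 to 178% of its level with HIF1A siRNA alone in these pairs, and its part in the values was not tested.

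When HIF1A siRNA was added to HIF2A siRNA, TXNIP, ARRDC4 and ARRDC2 were called. In the double knockdown against HIF2A siRNA TXNIP (log2 fold change -0.81, SE 0.12, adjusted p = 0.0011, edgeR), ARRDC4 (-0.81, SE 0.17, adjusted p = 0.014) and ARRDC2 (-0.71, SE 0.19, adjusted p = 0.0496) fell, each in 3 of 3 pairs and without overlap between the groups. These were 3 of the 6 members, where edgeR called 3.22% of genes lower and 4% in all, and 5.52% of genes were lower without overlap. The HIF2A siRNA libraries had a part in the earlier lists. The test is therefore not independent of the selection, and nothing is read from this count. ARRDC3 was lower in 3 of 3 pairs, as were 19.9% of genes, but overlapped, with -0.28 (SE 0.13, adjusted p = 0.27). ARRDC1 (0.31, SE 0.26, adjusted p = 0.57) and TXN (0.08, SE 0.13, adjusted p = 0.78) did not pass.

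Leaving out replicate 3 ended the TXNIP call in this comparison (-0.72, adjusted p = 0.095), which held in the other 20 of 21 alternatives. The ARRDC4 call was lost without replicate 1 (-0.86), replicate 2 (-0.67) or replicate 3 (-0.93), without double knockdown replicate 1 or 2 (both -0.75), without the block (-0.82) and in the 6 compared libraries alone (-0.80). ARRDC2 was close to the threshold and was called in 8 of 21 alternatives. Its call was lost without replicate 1 (-0.44), replicate 3, HIF2A siRNA replicate 1 (-0.46) or 3, control siRNA replicate 3, any HIF1A siRNA library or any double knockdown library, with values down to -0.84, and without the block (-0.71) or in the 6 compared libraries (-0.69). ARRDC2 was lower in all of these.

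The interaction of the siRNAs tested whether the effect of HIF1A siRNA differed with and without HIF2A siRNA. No member was called, as 0% of genes were by edgeR, with 318 genes at an unadjusted p under 0.05 and 11 genes called by DESeq2. For TXNIP the interaction was -0.24 on the log2 scale (95% confidence interval -0.62 to 0.13), for ARRDC4 0.01 (-0.50 to 0.52) and for ARRDC2 -0.18 (-0.74 to 0.39). The value for ARRDC3 was -0.49 (-0.87 to -0.12), negative in 3 of 3 replicates, with an unadjusted p of 0.014 and an adjusted p of 0.999 in edgeR. The estimates behind it were 0.22 for HIF1A siRNA alone and -0.28 for HIF1A siRNA added to HIF2A siRNA, of which the second did not pass.

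**Figure D2:**
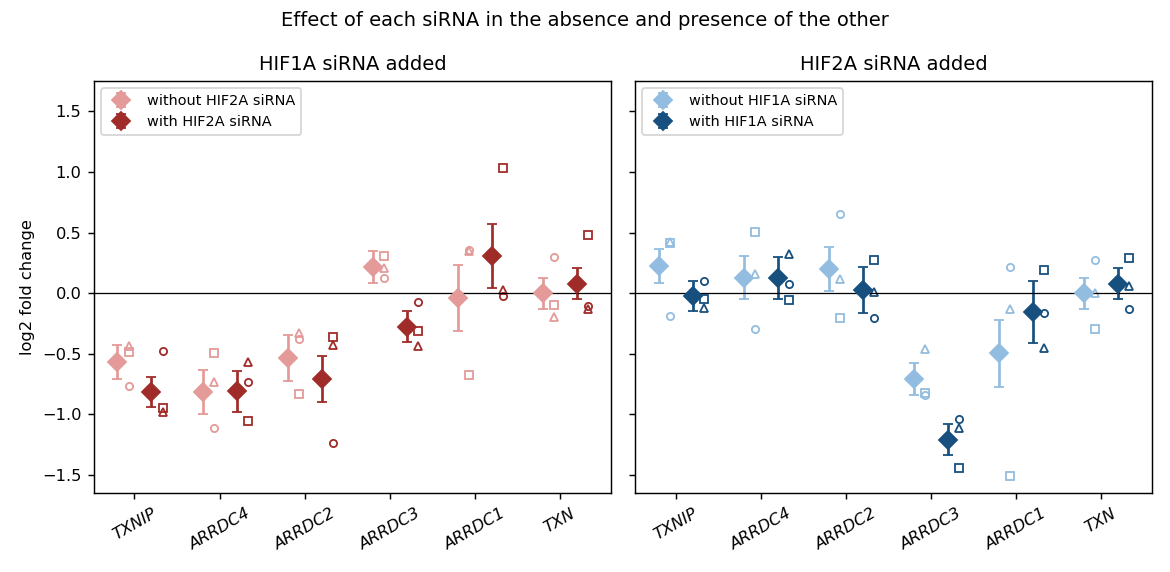
Log2 fold change (vertical axis) of each gene when HIF1A siRNA (left) or HIF2A siRNA (right) was added, without (light) or with (dark) the other siRNA, with diamonds and bars for the edgeR estimate and its SE and open symbols for the 3 pairs. HIF1A siRNA has negative estimates for TXNIP, ARRDC4 and ARRDC2 in both settings, and HIF2A siRNA has them for ARRDC3, at -0.71 and -1.21, and for ARRDC1, at -0.50 and -0.15 with wide errors.

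The likeness of the profiles was measured as the root mean square difference of the 9 log2 ratios to control siRNA within pairs, as a description, since all ratios share the control libraries. TXNIP and ARRDC4 were closest to each other among the members, at 0.22, followed by TXNIP and ARRDC2 at 0.41. ARRDC2 was at 0.51 from TXN and 0.52 from ARRDC4. From TXNIP, TXN was at 0.63, ARRDC3 at 0.75 and ARRDC1 at 0.88, beside a median of 0.62 over all genes. ARRDC3 was at 0.82 from ARRDC4.

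Among all genes, those nearest to TXNIP were EGLN1 (0.17), which encodes the HIF prolyl hydroxylase PHD2, SLC35E1, TANC2, WSB1 and the glycolytic enzyme ENO1 (0.18). The mean log2 ratios of EGLN1 were -0.48, 0.13 and -0.45 with HIF1A siRNA, HIF2A siRNA and both, against -0.56, 0.21 and -0.59 for TXNIP. Nearest to ARRDC4 were VLDLR (0.14), a lipoprotein receptor, the peptide amidating enzyme PAM (0.15), UPRT, ZSWIM5 and the kinase RIOK3 (0.20), with a median of 0.74 over all genes. VLDLR had mean log2 ratios of -0.63, 0.05 and -0.68 in the same order, against -0.78, 0.12 and -0.66 for ARRDC4.

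Nearest to ARRDC3 were TNFAIP6 (0.19), a hyaluronan-binding secreted protein, cyclin D1 (CCND1, 0.22), SEMA4B, the aryl hydrocarbon receptor AHR and transglutaminase TGM2 (0.24), with a median of 0.79. CCND1 had mean log2 ratios of 0.04, -0.64 and -0.95 against 0.21, -0.71 and -0.98 for ARRDC3. TGM2 was also higher with HIF1A siRNA alone, at 0.19.

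**Figure D3:**
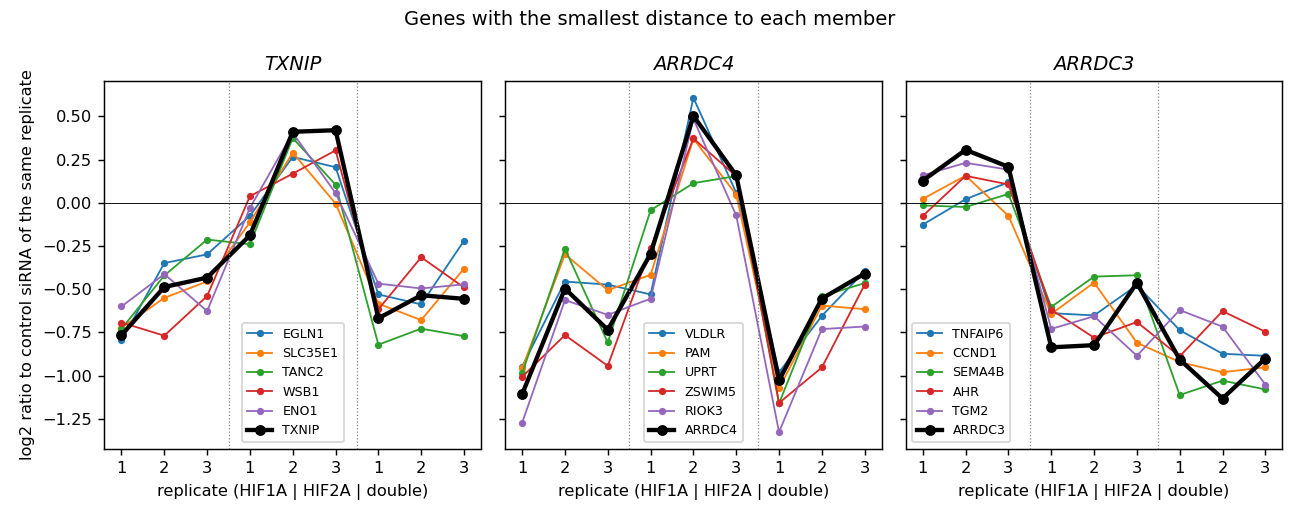
Log2 ratio to the control siRNA library of the same replicate (vertical axis) in the 9 libraries with a HIF siRNA (horizontal axis, replicates 1 to 3 of HIF1A siRNA, HIF2A siRNA and double knockdown), for TXNIP, ARRDC4 and ARRDC3 (black) and the 5 nearest genes of each (colours). TXNIP and ARRDC4 dip with HIF1A siRNA and in the double knockdown, and ARRDC3 dips with HIF2A siRNA and in the double knockdown.

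The pathway around these genes was followed in 71 other genes in 7 lists, of which 64 passed the filter. Of these, edgeR called 2 genes lower with HIF1A siRNA and 1 lower with HIF2A siRNA against control siRNA, and 7 lower and 4 higher in the double knockdown. Over all genes tested, 1.14% were called lower with HIF1A siRNA, 0.0857% lower with HIF2A siRNA, and 6.42% lower and 3.86% higher in the double knockdown. Since the lists were chosen with earlier results of these data known, the values of their genes with the single siRNAs are a description, and nothing is read from these calls. The double knockdown was compared with the same control and single siRNA libraries. Its tests of list genes are therefore not independent of that choice. The median log2 fold changes of the 64 genes were -0.0025, -0.02 and -0.03 in these comparisons, beside 0.0035, 0.0063 and 0.0048 over all genes tested. Without the replicate block, the list calls that held were those of SLC2A1 in the double knockdown, of DDIT4 in the double knockdown against control and HIF2A siRNA and of SLC2A3 against control siRNA. In the thioredoxin, peroxiredoxin and glutaredoxin system 0 of 22 genes were called with either single siRNA, and 2 fell in the double knockdown. GLRX, glutaredoxin 1, fell by 0.99 (SE 0.22, adjusted p = 0.0098, edgeR) from 17.4 to 21.5 CPM in control cells to 6.62 to 12.6 CPM. The methionine sulfoxide reductase MSRB3 fell by 0.54 (SE 0.14, adjusted p = 0.020), although its groups overlapped at 58.0 to 84.8 and 36.0 to 58.3 CPM. The GLRX call was lost without replicate 3 (-0.79), control replicate 3 (-0.81), double knockdown replicate 1 (-0.90) or 3 (-0.91), or the block (-0.94), and the MSRB3 call without replicate 3 (-0.54), control replicate 1 (-0.48) or 3 (-0.57), double knockdown replicate 2 (-0.42) or 3 (-0.52), or the block (-0.55).

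Of the glucose-sensing network of MLX, 7 of 8 genes were tested. MLXIP, which encodes MondoA, was at 84.2 ± 21.3 CPM with control siRNA, 76.1 ± 29.1 CPM with HIF1A siRNA, 96.4 ± 27.2 CPM with HIF2A siRNA and 74.5 ± 24.3 CPM in the double knockdown. Its log2 fold changes against control siRNA of -0.19, 0.21 and -0.21 were not called, with an adjusted p of 0.59 for the double knockdown (edgeR), and its replicates spread more than its groups. MLXIPL, the gene of the related ChREBP, had 0 to 2 counts per library. MXI1, a MAX-binding repressor, was at 39.6 to 51.9 CPM with control siRNA and at 23.2 to 29.3 CPM with HIF1A siRNA, a log2 fold change of -0.90 (SE 0.13). It was -0.84 with HIF1A siRNA against HIF2A siRNA. MXI1 fell in the double knockdown, with -0.90 against control siRNA (adjusted p = 0.0010, edgeR) and -0.84 against HIF2A siRNA (adjusted p = 0.0034). TXNIP and ARRDC4 were lower in both of these comparisons as well. There edgeR called 6.42% and 3.22% of all genes lower, and a link to MXI1 was not tested. The MXI1 call in the double knockdown against HIF2A siRNA was lost in 3 of 21 alternatives, among them without replicate 3 (-0.62) and without the block.

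MLX and MXD4, another MAX-network repressor that pairs with MLX, rose in the double knockdown. MLX rose by 0.56 (SE 0.15, adjusted p = 0.028, edgeR), from 16.3 to 21.4 CPM to 25.0 to 28.0 CPM, and MXD4 by 0.91 (SE 0.22, adjusted p = 0.017), from 13.2 to 28.0 CPM to 28.9 to 46.9 CPM. The MLX call was lost on leaving out any double knockdown library, control replicate 1 or 3, or replicate 1 or 3, with values from 0.45 to 0.63. The MXD4 call was lost without replicate 1 (0.64) or 3 (0.99), control replicate 1 (0.68) or 3 (0.96) or double knockdown replicate 1 (0.78). With the single siRNAs MLX had log2 fold changes of 0.30 (HIF1A siRNA) and 0.14 (HIF2A siRNA).

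Among cargo of the alpha-arrestins, 7 of 9 genes were tested. SLC2A1, the gene of GLUT1 that TXNIP brings into the cell, was the most abundant at 1569 ± 29.8 CPM with control siRNA, 1176 ± 34.4 CPM with HIF1A siRNA, 937 ± 3.09 CPM with HIF2A siRNA and 378 ± 44.3 CPM in the double knockdown. Against control siRNA its log2 fold change was -0.73 (SE 0.10) with HIF2A siRNA and -0.41 (SE 0.10) with HIF1A siRNA. In the double knockdown it fell, with log2 fold changes of -2.06 against control siRNA (adjusted p = 6.7e-09, edgeR), -1.64 against HIF1A siRNA (adjusted p = 3.3e-07) and -1.31 against HIF2A siRNA (adjusted p = 7.1e-07), and these calls held in 21 of 21 alternatives. The 4 groups did not overlap for SLC2A1, so that its mRNA was lower in both settings where TXNIP was lower and also with HIF2A siRNA, where TXNIP overlapped control siRNA. The SLC2A1 call with HIF2A siRNA was lost in 7 of 19 alternatives, at almost the same fold change, namely without replicate 3 (-0.73), control replicate 3 (-0.73), HIF1A siRNA replicate 2 (-0.74), HIF2A siRNA replicate 1 (-0.72) or 3 (-0.75), without the block (-0.73) and in the 6 compared libraries (-0.74).

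SLC2A3, the gene of the neuronal-type transporter GLUT3, fell in the double knockdown, with log2 fold changes of -1.38 against control siRNA (SE 0.21, adjusted p = 0.00063, edgeR) and -1.27 against HIF2A siRNA (SE 0.21, adjusted p = 0.0023). ITGB4, the integrin cargo of ARRDC3, was called in no comparison, but it had only 8 to 55 counts per library. Its log2 fold changes against control siRNA were -0.33 (SE 0.55) with HIF1A siRNA and 0.22 (SE 0.53) with HIF2A siRNA. In the double knockdown the value was 0.38 (SE 0.52). Each SE was larger than the size of its estimate, so whether ITGB4 mRNA changed could not be decided. The insulin receptor INSR rose in the double knockdown by 0.73 (SE 0.17, adjusted p = 0.014), from 13.1 to 17.1 CPM to 18.7 to 29.2 CPM.

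The INSR call was lost without replicate 1 (0.64) or 3 (0.84), control replicate 3 (0.74) or double knockdown replicate 1 (0.61) or 2 (0.73). The SLC2A3 call against control siRNA held in 21 of 21 alternatives, and that against HIF2A siRNA was lost without the block (-1.24) and in the 6 compared libraries (-1.26).

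Of 5 other binding partners of thioredoxin or TXNIP, 1 was called lower and 1 higher in the double knockdown against control siRNA. DDIT4, known as REDD1, an inhibitor of mTORC1 that forms a complex with TXNIP, was at 116 to 180 CPM with control siRNA and at 44.2 to 74.9 CPM with HIF1A siRNA, a log2 fold change of -1.25 (SE 0.15). With HIF2A siRNA it was at 111 to 153 CPM and gave -0.07 (SE 0.14). In the double knockdown, at 27.2 to 34.7 CPM, it fell, with log2 fold changes of -2.22 against control siRNA (adjusted p = 9.9e-08, edgeR), -0.96 against HIF1A siRNA (adjusted p = 0.0013) and -2.14 against HIF2A siRNA (adjusted p = 1.7e-07). Thus DDIT4 was lower with both siRNAs than with HIF1A siRNA alone, where TXNIP had a difference of -0.02, and this call was lost without replicate 3 (-0.88). APEX1, which thioredoxin reduces, rose in the double knockdown by 0.41 (SE 0.093, adjusted p = 0.012), from 206 to 248 CPM to 269 to 324 CPM. The APEX1 call was lost without replicate 1 (0.38) or 3 (0.42), control replicate 3 (0.41) or any double knockdown library (0.39 to 0.41).

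Of the ubiquitin ligases that alpha-arrestins recruit, 10 of 11 genes were tested and 1 was called. NEDD4 fell in the double knockdown by 0.79 (SE 0.18, adjusted p = 0.0098, edgeR), in 3 of 3 pairs, with groups that overlapped at 150 to 379 CPM and 88.2 to 262 CPM. That call was lost without replicate 1 (-0.65) or 3 (-0.92), control replicate 1 (-0.53), double knockdown replicate 2 (-0.65) or the block (-0.73). In the ESCRT list, which serves ARRDC1 microvesicles, 0 of 8 genes were called in any comparison, and in the list of other arrestin-fold genes 0 of 5 tested were called.

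**Figure D4:**
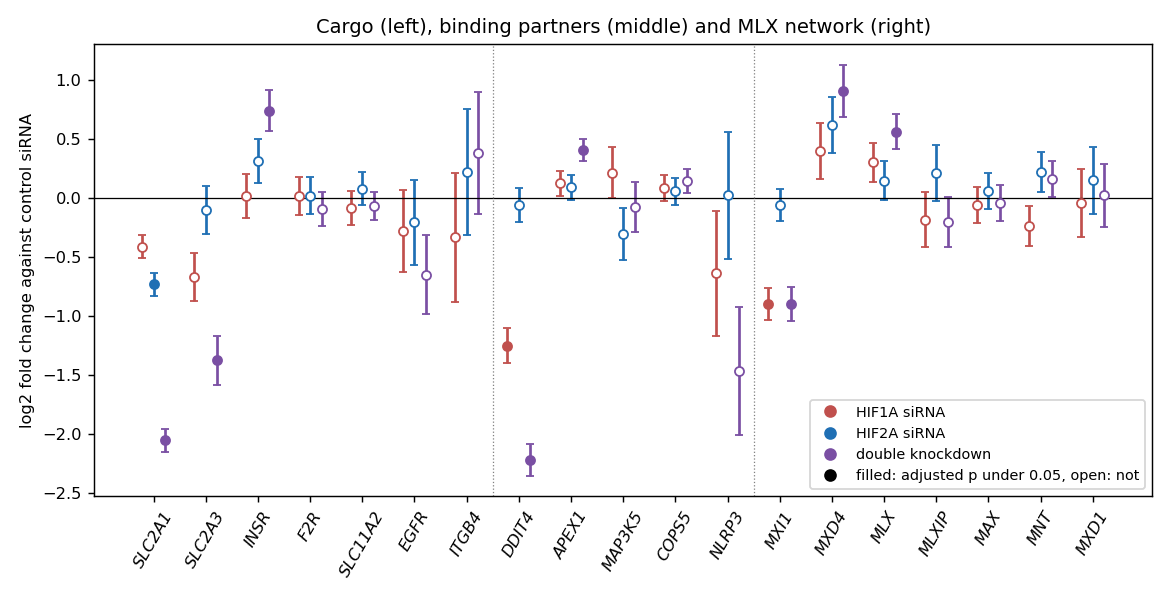
Log2 fold change against control siRNA with its SE (vertical axis, edgeR) of cargo, binding partners and MLX-network genes, for HIF1A siRNA, HIF2A siRNA and the double knockdown, filled where the adjusted p was under 0.05. Of the genes shown that passed, SLC2A1, SLC2A3 and DDIT4 fell most in the double knockdown, and MXI1 had -0.90 with HIF1A siRNA and in the double knockdown.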

How the data were processed

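RNA-seq of RCC4 cells was analysed in 12 libraries, grouped by sample labels. The authors trimmed reads with Trim Galore (0.3.3), aligned them to hg19 with HISAT2 (2.05), removed fragments not mapping uniquely with Picard (2.0.1), counted with HTSeq (0.5.4p3, intersection-strict) and deposited raw counts per gene symbol. The members and gene lists were chosen with earlier results of these data known.

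From the counts, edgeR (4.0.16, R 4.3.3) was run with TMM, filterByExpr (minimum count 10, total 15) and replicate number as blocking factor, and p-values were adjusted over all genes (Benjamini-Hochberg). The 9 libraries with control or single siRNAs were fitted over 12830 genes, and all 12 over 13000 genes for the double knockdown and interaction. The methods of the study pair conditions by biological replicate. Deviations from the group means of same-numbered libraries had correlations of 0.0991 to 0.813, against -0.72 to 0.527 for libraries of other numbers, so that the ranges overlapped. Within-pair ratios had 0.5 CPM added. The scripts were tested on simulated data.

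Named genes were the 6 members, HIF1A, EPAS1, the list genes called (at most 4 per list and comparison), SLC2A1, MLXIP, MLX and the 5 nearest genes of TXNIP, ARRDC3 and ARRDC4. ITGB4, MLXIPL, C9orf37 and ARRDC5 were added after their values were seen. Alternatives were DESeq2 (1.42.0), its size factors, no filter, 10 counts in every library, no block, other sets of libraries, other pseudocounts (none or 2 CPM) and leaving out each library or replicate. Coordinates and promoters are from RefSeq on GRCh38.p14, and transcript lengths from GENCODE. 1 gene of the cargo list is not reported here, and counts and medians of the lists leave it out. Protein sequences were not analysed here.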

Additional observations from a re-analysis of the deposited data

Results flagged for a closer look

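The estimated effect of HIF1A siRNA on ARRDC3 had opposite signs without and with HIF2A siRNA. ARRDC3 was higher with HIF1A siRNA than with control siRNA in 3 of 3 pairs (log2 ratios of 0.13 to 0.31), as were 14.8% of genes, and lower in the double knockdown than with HIF2A siRNA in 3 of 3 pairs (-0.44 to -0.07), as were 19.9% of genes. The edgeR estimates were 0.22 (95% confidence interval -0.06 to 0.50) and -0.28 (adjusted p = 0.27). The mean difference between these effects was -0.487 on the log2 scale. The test of the difference itself, the interaction in edgeR, had an unadjusted p of 0.014 and an adjusted p of 0.999, so it did not pass over all genes. The interaction estimate was negative in 20 of 20 alternatives, from -0.68 to -0.37. Control siRNA was at 2 nM in the control siRNA group, at 1 nM with each single siRNA and absent from the double knockdown. The part of control siRNA in these values was not tested.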

How the results depend on the processing

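Member directions held in all 19 alternatives for TXNIP, ARRDC2 and ARRDC4 with HIF1A siRNA and for ARRDC3 with HIF2A siRNA, and in all 21 for TXNIP, ARRDC2, ARRDC3 and ARRDC4 in the double knockdown against control siRNA. ARRDC1, ARRDC2 and ARRDC4 had 117 to 483 counts per library, and what depth limits was not tested apart from the spread between the 3 libraries of a group. The cause of the changes below was not tested.

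Without the replicate block, the calls were 41 genes for HIF1A siRNA (150 with it), 1 for HIF2A siRNA (11), 52 between the single siRNAs (193), 195 for the double knockdown against control siRNA (1336), 8 against HIF1A siRNA (182) and 90 against HIF2A siRNA (520). In that unblocked fit the member calls were lost, at almost the same log2 fold changes, for TXNIP (-0.60) and ARRDC4 (-0.71) against control siRNA, ARRDC3 (-1.20) against HIF1A siRNA, and ARRDC2 (-0.71) and ARRDC4 (-0.82) against HIF2A siRNA. Without the filter 41 genes were called for HIF2A siRNA, 291 between the single siRNAs and 4 for the interaction. DESeq2 called 236 for HIF1A siRNA, 58 for HIF2A siRNA, 329 between them, 403 and 818 for the double knockdown against HIF1A and HIF2A siRNA, and 11 for the interaction. With all 12 libraries 26 were called for HIF2A siRNA. In fits of only the 6 compared libraries the counts were 3 for HIF2A siRNA, and 2609, 656 and 164 for the double knockdown against control, HIF1A and HIF2A siRNA. There ARRDC2 passed against control siRNA (-0.50) but not against HIF2A siRNA (-0.69), nor did ARRDC4 (-0.80). With at least 10 counts in every library the ARRDC4 interaction was -0.0071.

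Leaving out a library or replicate number, the calls ranged from 66 to 219 for HIF1A siRNA, 1 to 33 for HIF2A siRNA, 90 to 351 between them, 302 to 2307, 26 to 442 and 158 to 672 for the double knockdown against control, HIF1A and HIF2A siRNA, and 0 to 3 for the interaction. The ranges of members that follow are over all alternatives, not only those that leave out libraries. In the double knockdown against control siRNA the log2 fold changes ranged from -0.66 to -0.47 for TXNIP, -0.83 to -0.49 for ARRDC4, -0.41 to 0.23 for ARRDC1 and -0.049 to 0.18 for TXN. Against HIF1A siRNA they ranged from -0.10 to 0.027 for TXNIP, -0.32 to 0.014 for ARRDC1, -0.10 to 0.17 for ARRDC2, -0.0035 to 0.21 for ARRDC4 and -0.048 to 0.17 for TXN. Against HIF2A siRNA they ranged from -0.996 to -0.72 for TXNIP, -0.0093 to 0.57 for ARRDC1, -0.87 to -0.44 for ARRDC2, -0.93 to -0.67 for ARRDC4 and -0.12 to 0.19 for TXN. The interaction ranged from -0.36 to 0.68 for ARRDC1, -0.50 to 0.16 for ARRDC2, -0.23 to 0.30 for ARRDC4 and -0.16 to 0.29 for TXN. Of 36 changes of sign in the tested comparisons, 35 came from leaving out libraries, and 0 had an adjusted p under 0.05. Further changes of sign in the comparisons of single siRNAs, which were not tested for members, are not in this count. There ARRDC1 and TXN changed sign with either siRNA against control siRNA, and ARRDC2 and ARRDC4 with HIF2A siRNA.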
